A study of Mus musculus with 24 samples.

Results

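Foxp3, Ikzf2, Ikzf4, Nrp1, Entpd1, Nt5e and Tgfb1, 7 genes known from regulatory T cells, were followed in CD4+ T cells grown under Th1 conditions with or without the BET bromodomain inhibitor I-BET-762. Every probe set whose single gene symbol was a member of this group was used, whatever its value, which gave 19 probe sets among 45037 that were not controls. A single symbol was available for 34945 of these probe sets, covering 18193 genes. The probe set with the highest mean intensity over the 24 arrays leads each gene. The series as a whole concerns inhibitors of BET proteins and of c-Myc in T cell cytokine production and autoimmune disease.

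FOXP3 is the transcription factor that specifies regulatory T cells, which restrain other T cells. IKZF2 (Helios) and IKZF4 (Eos) are zinc finger factors of the Ikaros family, and Eos is known as a co-repressor in FOXP3 complexes. Neuropilin 1 (Nrp1) is a receptor for semaphorins and vascular endothelial growth factor that marks thymus-derived regulatory T cells in mice. CD39 (Entpd1) and CD73 (Nt5e) are cell surface enzymes that in sequence turn extracellular ATP into adenosine, which inhibits T cells, and TGF-β1 (Tgfb1) is the cytokine that induces Foxp3 in naive CD4+ T cells. Several of these genes are also used by conventional T cells. BET proteins bind acetylated histones at active genes, and I-BET-762 blocks that binding.

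The 8 groups were activated cells and resting cells with DMSO, Control-768, 0.25 µM I-BET-762 or 0.5 µM I-BET-762, each with 3 biological replicates and an array per replicate. All groups shared the C57BL/6 background and the 2D2 transgenic T cell receptor, which recognises a myelin peptide, so most T cells carried a single specificity. All were primed for 48 h through CD3 and CD28 with Th1 polarization and expanded for 2 days. Activated cells were then restimulated through CD3 and CD28 for 4 h, and resting cells were not. Control-768 was the control compound and DMSO the vehicle. The concentration of Control-768 and whether compounds were present during restimulation are not given in the sources used here. The labels name no sort for FOXP3 or other regulatory T cell markers, so each array averages all cells of a culture, and fewer cells of a type cannot be told apart from less RNA per cell.

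The T cell genes Cd3d (lowest value 5841) and Cd4 (lowest value 364) were bright on all 24 arrays, whose median intensities lay between 37.4 and 44.4. B cell markers summed to 82.4 to 149.5 over 6 genes, of which 3 were under 32 on every array, and 8 myeloid markers summed to 228 to 304. The CD8 markers Cd8a and Cd8b1 summed to 529.9 to 957 in activated and 412 to 632 in resting cells, mostly Cd8b1, which averaged 553 over the arrays. With Control-768, Cd8b1 differed by 0.49 ± 0.25 between activated and resting cells (log2, limma, adjusted p = 0.215). In that comparison Cd4 was lower in activated cells (-0.84 ± 0.18, adjusted p = 0.00371). Eomes of the NK cell list (1.92 ± 0.34, 0.000747) and Cd74 of the dendritic cell list (1.53 ± 0.32, 0.00247) were higher. No B cell or myeloid marker passed. The part of CD8 T cells or other cell types in the restimulation results was not tested. Of 6 Th1 markers with Control-768, 3 were higher and 1 was lower in activated cells. Tbx21 rose by 1.64 ± 0.14 (adjusted p = 6.31e-07) and Ifng by 4.19 ± 0.41 (3.51e-06). Il18r1 rose by 0.79 ± 0.21 (0.0167), a call lost without activated replicate 1 or resting replicate 2 (0.0758 and 0.0711). In resting cells Tbx21 was higher with both I-BET-762 concentrations than with both controls (0.74 ± 0.10, adjusted p = 0.000219). With the replicate number as a block, 2 of the 6 were higher and 1 was lower in that comparison. In activated cells at 0.5 µM against Control-768, 0 were higher and 1 was lower with the block. Cxcr3 averaged 695 with 0.5 µM against 1217 with Control-768 in resting cells and 529 against 1048 in activated cells. Replicates correlated at a mean r of 0.978 to 0.992. Replicate 3 of resting cells with 0.5 µM I-BET-762 stood farthest from its group mean (SD of its log2 deviations 0.434), followed by replicate 3 of activated cells with 0.5 µM (0.382), against 0.164 to 0.331 for the other arrays. The 4 activated arrays numbered 3 also had a higher 3′ over 5′ Gapdh signal (log2 0.149 to 0.312, against -0.0604 to 0.0994 elsewhere). Arrays of the same number and state deviated together (r 0.291 to 0.83 in 36 pairs), so each test is also given with the replicate number as a block within each state where this changes the call.

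**Figure D1:**
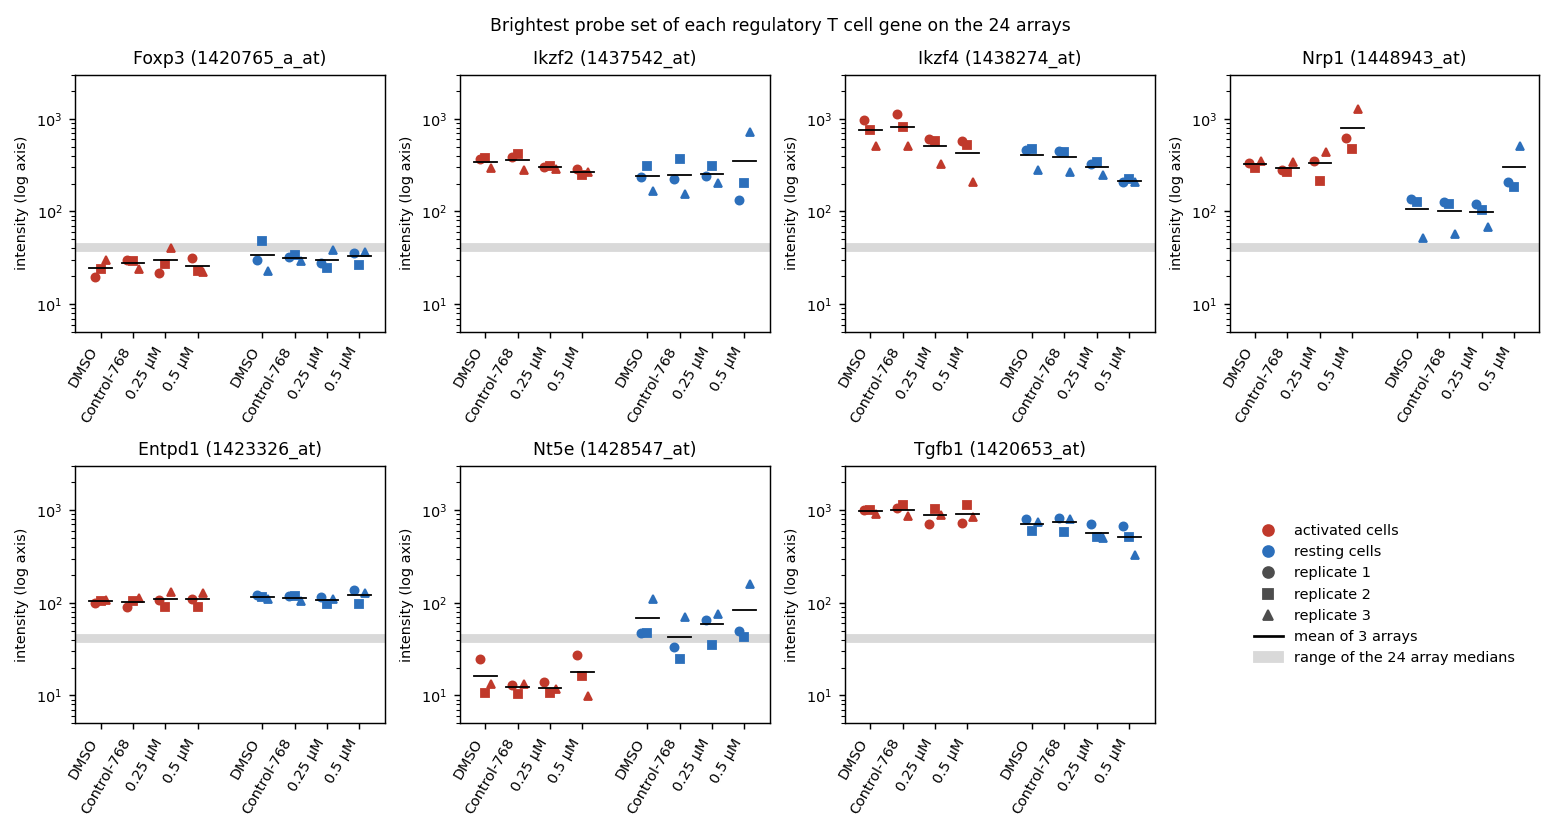
Intensity (log axis) of the brightest probe set of each of the 7 genes on the 24 arrays, by compound and concentration, with activated cells to the left of resting cells; markers are the 3 replicates, black lines are means and the grey band is the range of the array medians (37.4 to 44.4). Foxp3 stays near the band in every group, Ikzf4 is lowest with 0.5 µM I-BET-762 in both states, and Nrp1 is highest there.

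Foxp3 signal stayed near the middle of the array in every group. Its only probe set, 1420765_a_at, lay between 19.6 and 47.9 on the 24 arrays, in the 34.2 to 54.4 percentile of all probe sets of an array. In activated cells it had 31.7, 22.6 and 22.4 with 0.5 µM I-BET-762 against 29.6, 29.02 and 23.9 with Control-768, and in resting cells 35.2, 26.6 and 36.4 against 32.05, 33.5 and 29.1. The ranges of neighbouring groups overlapped throughout the order of means. The log2 difference at 0.5 µM was -0.07 in activated cells (95% interval -0.44 to 0.30, adjusted p = 0.978) and 0.03 in resting cells (-0.34 to 0.40, adjusted p = 0.99). These intervals hold no difference larger than 0.44 on the log2(intensity + 16) scale, which compresses the change of a gene this dim. A signal at this level does not separate low expression from background.

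Eos (Ikzf4) had lower signal with I-BET-762 in both states. In activated cells, 1438274_at read 972, 764 and 509.8 with DMSO, 1115, 825 and 513 with Control-768, 609, 578 and 325 with 0.25 µM and 569.8, 521 and 207 with 0.5 µM. In resting cells it read 458, 471 and 279 with DMSO, 444, 440.0 and 265 with Control-768, 322, 344 and 250.3 with 0.25 µM and 209.6, 224 and 209.8 with 0.5 µM. In every replicate of both states, the value with 0.5 µM was below the value with 0.25 µM, and that was below both controls. Replicates differed widely in level among activated cells, where replicate 3 was lowest with each compound, and the activated range with 0.5 µM overlapped that with Control-768. In resting cells all values with 0.5 µM lay below all others. By mean intensity the order over the 8 groups was activated Control-768 (818 ± 301), activated DMSO (749 ± 232), activated 0.25 µM I-BET-762 (504 ± 156), activated 0.5 µM I-BET-762 (432 ± 197), resting DMSO (403 ± 107), resting Control-768 (383 ± 102), resting 0.25 µM I-BET-762 (305 ± 48.96) and resting 0.5 µM I-BET-762 (215 ± 8.34) (SD, n = 3 each). Of the neighbours in this order, only the resting groups with 0.25 µM and 0.5 µM had ranges that did not overlap.

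The log2 difference of Ikzf4 at 0.5 µM minus Control-768 was -0.95 ± 0.35 (SE) in activated cells and -0.76 ± 0.35 in resting cells. Without the block neither passed (limma, adjusted p = 0.501 and 0.548). With the replicate block the SE was 0.15, and both passed (adjusted p = 0.00175 in activated and 0.00733 in resting cells). By replicate number the differences were -0.95, -0.65 and -1.25 in activated cells and -1.03, -0.93 and -0.32 in resting cells, negative in 6 of 6 pairs. Leaving out activated replicate 3 with 0.5 µM, the lowest activated value, gave -0.50 without the block. That setting kept replicate 3 with Control-768, the lowest of its group, so the replicates compared were not matched. At 0.25 µM they were -0.66 in activated cells (adjusted p = 1, 0.11 with the block, 0.0284 with the block and without resting replicate 3 at 0.5 µM) and -0.29 in resting cells (1, 0.81). The step between the concentrations did not pass in either state (log2 -0.28, interval -1.02 to 0.45, in activated and -0.47, interval -1.20 to 0.26, in resting cells).

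A second Ikzf4 probe set, 1457342_at, followed the first over the 24 arrays (r = 0.972). At 0.5 µM it differed from Control-768 by -0.92 in activated cells (adjusted p = 0.6, 0.0101 with the block) and by -0.89 in resting cells (0.478, 0.00887). Both probe sets also passed with the block when both concentrations were set against both controls, with adjusted p of 0.000482 and 0.00228 in activated cells and 0.00492 and 0.00937 in resting cells (without it 0.302, 0.358, 0.547 and 0.515). Without all arrays numbered 3, the calls at 0.5 µM with the block passed too, and 1438274_at differed by -0.80 (adjusted p = 0.00593) in activated and -0.98 in resting cells (0.00178). The third probe set, 1460664_at, did not exceed 28.6 on any array. The mean of 1438274_at was higher in activated than in resting cells under every compound, by 0.84 with 0.5 µM, 0.65 with 0.25 µM, 1.03 with Control-768 and 0.86 with DMSO, but no such difference passed (adjusted p = 0.112, 0.272, 0.0538 and 0.11).

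**Figure D2:**
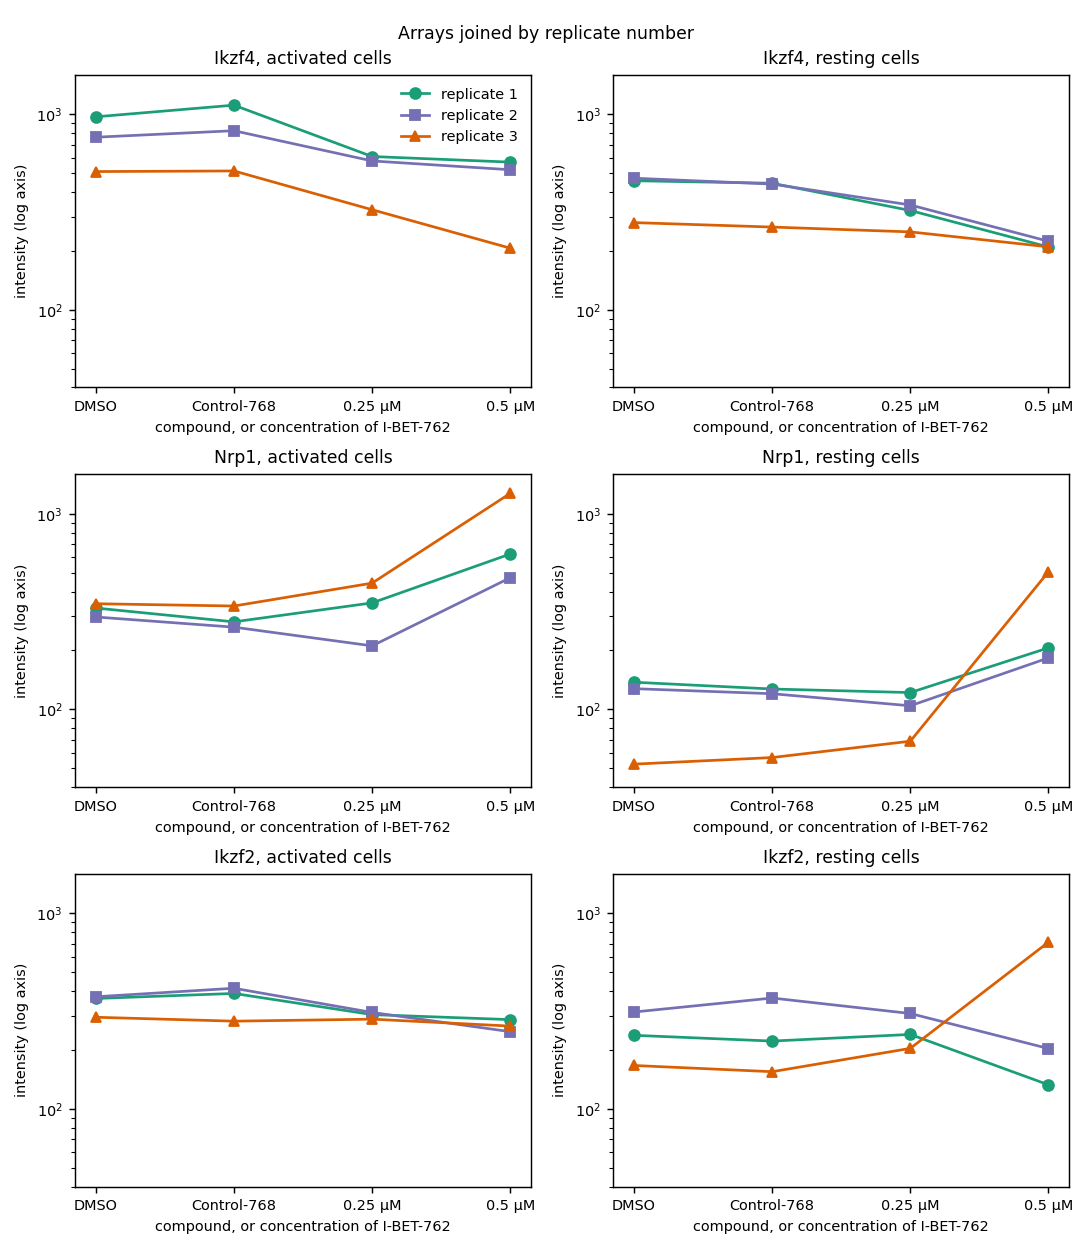
Intensity (log axis) by compound, with arrays of the same replicate number joined, for activated and resting cells. Each Ikzf4 line lies lower at both concentrations of I-BET-762 than with either control, each Nrp1 line is highest at 0.5 µM, and replicate 3 of resting cells with 0.5 µM I-BET-762 lies apart for Ikzf2 (713) and Nrp1 (506).

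Helios (Ikzf2) depended on replicate 3 of resting cells with 0.5 µM I-BET-762. Probe set 1437542_at had 133, 203 and 713 with 0.5 µM I-BET-762 against 222, 369 and 155 with Control-768 in resting cells. The first and second replicates were below their Control-768 partners and the third was the highest Helios value of the 24 arrays. The same array held the highest value of 1456956_at, 158 against at most 54.9 elsewhere, and 1421643_at stayed at or under 42.6. The log2 difference was 0.20 ± 0.39 (adjusted p = 0.954), and without that array, with the block, it was -0.68 (adjusted p = 0.0149). That setting was chosen after the values were seen, and its direction is the opposite of the value over all arrays.

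In activated cells Helios read 286, 248 and 265 with 0.5 µM I-BET-762 against 389.6, 414 and 281 with Control-768. Each replicate was lower with I-BET-762, but the ranges overlapped through replicate 3. The log2 difference was -0.40 ± 0.39 (interval -1.22 to 0.41, adjusted p = 0.925, 0.756 with the block). Without the arrays numbered 3 and with the block it was -0.56 (adjusted p = 0.0419). With 0.25 µM the activated values were 304, 311 and 288 and the resting values 240.3, 308 and 204, within the span of the controls of the same state. By mean the order was activated Control-768 (362 ± 70.9), resting 0.5 µM I-BET-762 (349.9 ± 317), activated DMSO (345 ± 44.4), activated 0.25 µM I-BET-762 (301 ± 12.1), activated 0.5 µM I-BET-762 (267 ± 18.98), resting 0.25 µM I-BET-762 (251 ± 52.6), resting Control-768 (249 ± 109.5) and resting DMSO (239 ± 73.2), and only activated 0.25 µM and activated 0.5 µM were neighbours without overlap.

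Neuropilin 1 (Nrp1) had higher signal at 0.5 µM in both states and little difference at 0.25 µM. In activated cells 1448943_at read 329.9, 297 and 347 with DMSO, 280.2, 263 and 338 with Control-768, 350.4, 211 and 442 with 0.25 µM and 624, 471 and 1275 with 0.5 µM. In resting cells it read 138, 128 and 52.4 with DMSO, 127, 120.1 and 56.6 with Control-768, 122, 104 and 68.6 with 0.25 µM and 206, 183 and 506 with 0.5 µM. The 3 values with 0.5 µM lay above every control value of the same state, and in both states replicate 3 was by far the highest of them. The values with 0.25 µM overlapped those with Control-768 in both states. By mean the order was activated 0.5 µM I-BET-762 (790.0 ± 427), activated 0.25 µM I-BET-762 (335 ± 116), activated DMSO (325 ± 25.5), resting 0.5 µM I-BET-762 (298 ± 180.0), activated Control-768 (294 ± 39.04), resting DMSO (106 ± 46.6), resting Control-768 (101 ± 38.8) and resting 0.25 µM I-BET-762 (98.2 ± 27.1). Neighbouring ranges did not overlap between activated cells with 0.5 µM and with 0.25 µM, nor between activated cells with Control-768 and resting cells with DMSO.

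The log2 difference of Nrp1 at 0.5 µM minus Control-768 was 1.26 ± 0.40 in activated cells (interval 0.43 to 2.09) and 1.34 ± 0.40 in resting cells (0.51 to 2.18). Neither passed (adjusted p = 0.323 and 0.18, 0.115 and 0.0656 with the block). By replicate the differences were 1.11, 0.80 and 1.87 in activated cells and 0.64, 0.55 and 2.85 in resting cells, positive in 6 of 6 pairs. Probe sets 1418084_at and 1448944_at tracked 1448943_at (r = 0.986 and 0.983 over 24 arrays), with differences of 1.15 and 1.17 in activated cells and 1.26 and 1.36 in resting cells. With the block, 1448944_at passed in resting cells (adjusted p = 0.0328, 0.104 without it). That call was lost when replicate 3 of resting cells with 0.5 µM was left out, at a log2 difference of 0.78 (adjusted p = 0.136).

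The spread of that array also entered the test in activated cells, because all arrays share an estimate of the spread. Without it and with the block, the activated difference at 0.5 µM passed for all 3 bright Nrp1 probe sets (adjusted p = 0.00125 for 1448943_at, 0.0172 for 1418084_at and 0.00611 for 1448944_at), a setting chosen after the values were seen. Without all arrays numbered 3 and without the block, the activated difference of 1448943_at was 0.96 (adjusted p = 0.0461) and the resting difference 0.59 (0.237). At 0.25 µM the difference from Control-768 was 0.13 in activated cells (interval -0.71 to 0.96) and 0.00 in resting cells (-0.84 to 0.83). The step between the concentrations was 1.13 and 1.35 (adjusted p = 1 and 0.59, 0.437 and 0.154 with the block), which did not pass. The dim probe set 1457198_at lay between 18.1 and 77.02.

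**Figure D3:**
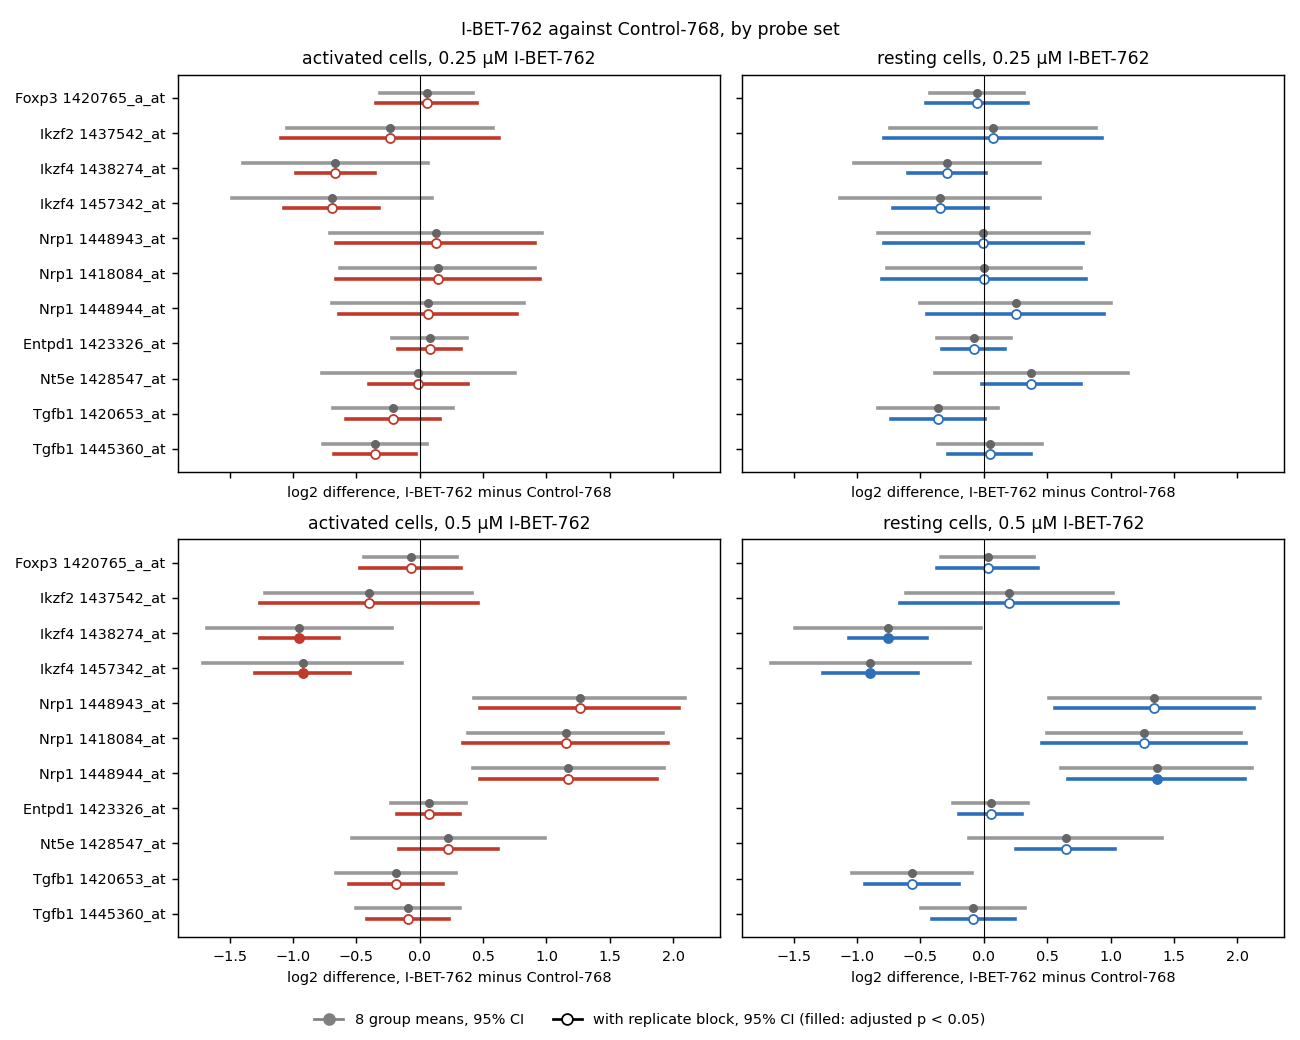
Log2 difference of I-BET-762 minus Control-768 by state and concentration, with 95% intervals, for the 11 probe sets that lead a gene or have a mean intensity of at least 64. Grey points come from the model of 8 group means. Coloured circles (red in activated cells, blue in resting cells, black in the key) come from the model with the replicate block, filled where its adjusted p was under 0.05. At 0.5 µM the filled circles are both bright Ikzf4 probe sets in each state and Nrp1 1448944_at in resting cells, and none is filled at 0.25 µM.

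Markers of NK and dendritic cells also differed between these groups, in both directions. The 6 NK cell markers summed to 4441 to 8309 with 0.5 µM I-BET-762 against 2434 to 4548 with Control-768 in activated cells, and to 4389 to 7236 against 1729 to 2861 in resting cells. Most of that sum was Nkg7, a granule protein gene that T cells also express, and other members of the list had values in the opposite direction. With both concentrations against both controls, Nkg7 rose by 1.09 ± 0.25 in resting cells (limma, log2, adjusted p = 0.0408, 3.51e-07 with the block). The call without the block was lost in 8 omissions of an array. Eomes, a T-box factor of NK and CD8 T cells, averaged 81.7 with 0.5 µM against 242 with Control-768 in activated cells and 43.3 against 49.97 in resting cells. The receptor gene Klrk1 averaged 34.8 against 155 in activated and 23.98 against 80.2 in resting cells, and Ncr1 and Klre1 did not exceed 61.4 and 32.1. The median log2 difference of the 6 at 0.5 µM minus Control-768 was -0.50 in activated and -0.12 in resting cells, and with the block 1 was higher and 2 lower in activated cells and 1 higher and 1 lower in resting cells.

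The 9 dendritic cell markers summed to 770.3 to 1571 with 0.5 µM against 1312 to 1978 with Control-768 in activated cells and to 1642 to 2001 against 1586 to 2587 in resting cells. Most of it was the class II gene H2-Ab1, and Cd74, the invariant chain of class II, averaged 114 against 206 in activated and 42.4 against 61.3 in resting cells. At 0.5 µM minus Control-768, 0 of the 9 were higher in either state, with or without the block. With the block 2 were lower in activated and 0 in resting cells (median log2 -0.01 and 0.18). Zbtb46, a factor of conventional dendritic cells, averaged 171 with 0.5 µM, 151 with Control-768 and 164 with DMSO in activated cells. In resting cells Zbtb46 averaged 113, 72.8 and 86.5 in the same order. It had 209.8 on the resting replicate 3 array where Nrp1 stood apart. Itgax and Xcr1 did not exceed 44.5 and 20.1. Neuropilin 1 is also known from dendritic cells, and the part of these cells in the Nrp1 values was not tested.

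CD39 (Entpd1) did not pass with I-BET-762 at either concentration. Probe set 1423326_at had 109, 89.3 and 127 with 0.5 µM I-BET-762 against 89.1, 105 and 112 with Control-768 in activated cells and 137, 96.1 and 127 against 118, 119 and 105 in resting cells. The groups overlapped in both states, and all 24 values lay between 89.1 and 137. The log2 difference was 0.07 (interval -0.22 to 0.36) in activated and 0.05 (-0.24 to 0.35) in resting cells, the narrowest intervals among the lead probe sets. The other Entpd1 probe sets, 1450939_at and 1453586_at, did not exceed 47.3 and 16.9.

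CD73 (Nt5e) was dim and more variable. In resting cells 1428547_at had 49.2, 42.4 and 159.5 with 0.5 µM I-BET-762 against 33.3, 24.8 and 70.6 with Control-768, and in activated cells 27.2, 16.3 and 9.90 against 13.1, 10.5 and 13.3. Each resting replicate was higher with I-BET-762 than with Control-768 although the ranges overlapped, and activated values were mixed. With DMSO the resting values were 46.9, 47.4 and 109.4, so replicate 2 was lower with I-BET-762 than with DMSO. The resting log2 difference was 0.65 ± 0.36 (adjusted p = 0.669, 0.0756 with the block) and did not pass, nor did the activated difference of 0.23 (interval -0.54 to 0.99). The other 2 Nt5e probe sets did not track 1428547_at over the 24 arrays (r = -0.311 for 1459023_at and -0.0213 for 1422974_at). They lay between 23.7 and 54.7 and between 17.9 and 42.3. In resting cells 1459023_at was also higher in each replicate with 0.5 µM (36.8, 38.7 and 47.8) than with Control-768 (23.7, 32.3 and 25). With DMSO it had 43.1, 40.2 and 28.4, and 1422974_at was mixed against Control-768. By mean the 4 resting groups stood above the 4 activated groups, with resting 0.5 µM highest (83.7 ± 65.8) and activated 0.25 µM lowest (12.1 ± 1.77), and all neighbours overlapped.

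TGF-β1 (Tgfb1) was measured by 2 probe sets. In resting cells 1420653_at had 673, 515 and 332 with 0.5 µM I-BET-762 against 818, 584 and 808 with Control-768, and in activated cells 734, 1121 and 834 against 1054, 1129 and 857. Every replicate was lower with I-BET-762 in both states, most in resting replicate 3, and the ranges overlapped in both states. The resting log2 difference was -0.57 ± 0.23 (adjusted p = 0.433, 0.11 with the block), and that of both concentrations against both controls was -0.45 ± 0.16 (0.333, 0.0685). Neither passed. Probe set 1445360_at did not repeat this difference, with -0.08 at 0.5 µM in resting cells (interval -0.49 to 0.33). Over the 8 groups the mean of 1420653_at was highest in activated cells with Control-768 (1014 ± 141) and lowest in resting cells with 0.5 µM (506 ± 171), with overlap between all neighbours in the order.

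The comparisons of both concentrations with Control-768 share the Control-768 arrays. Across the 19 probe sets, none passed in any I-BET-762 comparison without the block (limma). At 0.5 µM against Control-768 this was 0 of 19 in activated cells (6 at unadjusted p under 0.05), where 0.424% of all probe sets passed, and 0 of 19 in resting cells (7 unadjusted), where 0.753% passed. At 0.25 µM it was 0 of 19 in each state (1 unadjusted in each), beside 0.0355% in activated and 0.04% in resting cells. Both concentrations against both controls gave 0 of 19 in each state (5 unadjusted in each), beside 0.626% in activated and 0.999% in resting cells. With the block, 2 of 19 passed at 0.5 µM in activated cells (1.81% of all) and 3 of 19 in resting cells (2.98%), and in the pooled comparisons 2 of 19 in each state (2.3% and 3.08%). The 2 and 3 probe sets stand for Ikzf4 alone and for Ikzf4 and Nrp1, since probe sets of a gene are not independent.

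The step between the concentrations gave 0 of 19 in each state (4 unadjusted in each), beside 0.0111% of all probe sets in activated and 0.0422% in resting cells. Control-768 against DMSO gave 0 of 19 in each state, also at unadjusted p under 0.05, where 0% of all probe sets passed in each. For the lead probe sets the difference of Control-768 from DMSO lay between -0.51 (Nt5e, interval -1.27 to 0.25) and 0.11 (Foxp3 in activated cells, interval -0.26 to 0.48). The difference in the pooled I-BET-762 effect between activated and resting cells passed for 0 of 19 (1 unadjusted) and for 0% of all. For Ikzf4 it was -0.20 (interval -0.93 to 0.54) and for Nrp1 -0.03 (-0.86 to 0.80).

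Restimulation for 4 h gave calls among these genes without the block. Nrp1 rose under all 4 compounds, and Nt5e fell under 0.5 µM, 0.25 µM and DMSO. By probe set, 6 of 19 passed with 0.5 µM I-BET-762 (10 unadjusted), 4 with 0.25 µM (8), 6 with Control-768 (10) and 6 with DMSO (10). The shares of all probe sets that passed were 17.8%, 10.5%, 14.8% and 15.8% in the same order. Since 3 of the calls in each comparison came from Nrp1 alone, the counts of 19 are not counts of genes. By lead probe set, Nrp1, Nt5e and Tgfb1 passed with 0.5 µM, and Nrp1 and Nt5e with 0.25 µM and with DMSO. With Control-768 only Nrp1 of the 7 genes passed, where 18.3% of all genes did. The share of all genes was taken for Control-768 only, so no excess or lack of genes is read from these calls. Fitting only the 6 arrays compared left 1 of the 6 calls with 0.5 µM, that of Tgfb1 1445360_at. The adjusted p was then 0.16, 0.172 and 0.233 for Nrp1 1448943_at, 1418084_at and 1448944_at, 0.126 for Nt5e and 0.15 for Tgfb1 1420653_at. With 0.25 µM, Nrp1 1448944_at was lost by that fit (0.0569), with added constants of 1 (0.0568) or 64 (0.0698) and with quantile normalization (0.0574), and Nt5e with a constant of 64 (0.0651). With DMSO, Tgfb1 1445360_at was lost by the fit of the groups compared (0.0672). Without the arrays numbered 3, Nt5e (0.0709) and Tgfb1 1420653_at (0.16) did not pass with 0.5 µM, nor did Tgfb1 1420653_at with array weights (0.0967).

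Nrp1 1448943_at averaged 294 ± 39.04 in activated and 101 ± 38.8 in resting cells with Control-768 (SD, n = 3 each), and its activated and resting values did not overlap with any compound except 0.5 µM. The log2 difference of activated minus resting cells was 1.37 with 0.5 µM (adjusted p = 0.0201), 1.59 with 0.25 µM (0.0143), 1.46 with Control-768 (0.0171) and 1.57 with DMSO (0.0105). For 1418084_at it was 1.36, 1.61, 1.47 and 1.38 in the same order (adjusted p = 0.0131, 0.00786, 0.00967 and 0.0143), and for 1448944_at 1.15, 1.16, 1.35 and 1.33 (0.0311, 0.0452, 0.0153 and 0.0158). All 12 differences were positive.

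Single arrays decided several of these Nrp1 calls. With 0.5 µM, leaving out replicate 3 of activated cells took 1448943_at to 0.97 (adjusted p = 0.155), 1418084_at to 0.97 (0.112) and 1448944_at to 0.76 (0.222). Leaving out resting replicate 1 or 2 with 0.5 µM also ended the calls, at adjusted p of 0.0848 and 0.0967 for 1448943_at, 0.0581 and 0.0796 for 1418084_at and 0.094 and 0.176 for 1448944_at. With 0.25 µM, activated replicate 3 was decisive for all 3 (adjusted p without it 0.0833, 0.0554 and 0.229), as were activated replicate 1 and resting replicate 3 for 1448943_at (0.056 and 0.0716). Any array but activated replicate 2 was decisive for 1448944_at (0.119 without activated replicate 1, and 0.0822, 0.102 and 0.121 without resting replicates 1, 2 and 3). With Control-768, 1448943_at and 1448944_at were lost without activated replicate 3 (adjusted p = 0.0717 and 0.0736) or resting replicate 3 (0.0957 and 0.0681), and 1418084_at passed whichever array was left out. With DMSO all 3 were lost without resting replicate 3 (0.0656, 0.0781 and 0.0759) and 1418084_at also without activated replicate 1 (0.0598). The difference stayed at or above 0.76 in each such case.

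Nt5e moved the other way by 1 of its 3 probe sets. Probe set 1428547_at averaged 16.3 ± 7.58 in activated and 67.9 ± 35.95 in resting cells with DMSO (SD, n = 3 each). Activated and resting values did not overlap under any of the compounds. The log2 difference of activated minus resting cells was -1.40 with 0.5 µM (adjusted p = 0.0101), -1.37 with 0.25 µM (0.0203) and -1.32 with DMSO (0.017), and -0.98 with Control-768 did not pass (0.0799). With 0.5 µM the call was lost without activated replicate 3 (adjusted p = 0.0644) or resting replicate 3 (0.0701). With 0.25 µM it was lost without any array but resting replicate 2 (adjusted p = 0.0532, 0.0571 and 0.0684 without activated replicates 1, 2 and 3, and 0.0649 and 0.0923 without resting replicates 1 and 3). With DMSO it was lost without activated replicate 2 or 3 (0.064 and 0.062) or resting replicate 3 (0.0978). All activated values were at or under 27.2, below the array medians, where the added constant compresses differences.

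The promoters of Nrp1 and Nt5e are shown because their lead probe sets passed in opposite directions on restimulation under more than 1 compound, as the 250 bases before the annotated start, with matches to the GC box GGGCGG on either strand in capitals.
Nrp1 (RefSeq, GRCm38.p6, chr8:128358823-128359072, + strand): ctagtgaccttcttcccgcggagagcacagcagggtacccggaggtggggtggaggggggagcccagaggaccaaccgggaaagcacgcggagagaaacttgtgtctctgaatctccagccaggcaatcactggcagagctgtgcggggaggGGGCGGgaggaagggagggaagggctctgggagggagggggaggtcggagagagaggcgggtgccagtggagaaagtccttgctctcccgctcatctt
Nt5e (RefSeq, GRCm38.p6, chr9:88327359-88327608, + strand): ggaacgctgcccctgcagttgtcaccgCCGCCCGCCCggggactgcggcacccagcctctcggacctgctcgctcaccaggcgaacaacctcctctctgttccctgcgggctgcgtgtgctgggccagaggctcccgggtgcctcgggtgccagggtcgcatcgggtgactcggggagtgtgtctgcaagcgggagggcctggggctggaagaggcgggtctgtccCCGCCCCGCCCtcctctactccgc
Both are GC rich (64.4% for Nrp1 and 72.0% for Nt5e). Nrp1 has 1 GC box and Nt5e 4 overlapping matches, a motif that 32.7% of 32851 RefSeq promoters of this length hold. Neither holds the E-box CACGTG (in 6.02% of promoters) or the AP-1 letters TGANTCA (in 6.75%). These are matches of letters in a window and describe no binding. A promoter entry was present for 5 of the 7 genes.

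Tgfb1 rose on restimulation by both probe sets with 0.5 µM, by 1445360_at alone with Control-768 and DMSO, and by neither with 0.25 µM. With 0.5 µM I-BET-762, 1420653_at averaged 897 ± 201 in activated and 506 ± 171 in resting cells (SD, n = 3 each), and the activated values all lay above the resting values. Its log2 difference was 0.84 (adjusted p = 0.0126), against 0.61 (0.0932) with 0.25 µM, 0.46 (0.202) with Control-768 and 0.44 (0.217) with DMSO, none of which passed. The call with 0.5 µM was lost without activated replicate 2 (0.67, adjusted p = 0.0641) or resting replicate 3 (0.57, 0.0838). With Control-768, 1445360_at had 267, 226 and 290.2 in activated against 119.6, 120.3 and 163 in resting cells, without overlap. It rose by 0.88 with 0.5 µM (adjusted p = 0.00353), 0.89 with Control-768 (0.00426) and 0.80 with DMSO (0.00838, and 0.0608 without resting replicate 2). With 0.25 µM it differed by 0.49 (0.128). The probe sets correlated at r = 0.707 over the 24 arrays.

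The remaining calls on restimulation were dim Entpd1 probe sets. Entpd1 1450939_at had 7.54, 1 and 3.68 in activated against 39.7, 32.5 and 11.5 in resting cells with Control-768 and 6.16, 6.95 and 6.49 against 23.7, 47.3 and 15.96 with DMSO, with log2 differences of -1.08 (adjusted p = 0.0171) and -0.94 (0.0355). All of its activated values in these groups were under all of its resting values, and all were below or close to the array medians. The Control-768 call was lost without resting replicate 1 or 2 (0.0939 and 0.068) or activated replicate 2 or 3 (0.0684 and 0.0562), and the DMSO call without any array but resting replicate 3 (adjusted p 0.065 to 0.188). Entpd1 1453586_at passed with Control-768 (-0.64, adjusted p = 0.00233) at intensities of at most 16.9. The lead Entpd1 probe set differed by -0.14 with Control-768 (interval -0.43 to 0.15, adjusted p = 0.605). Foxp3 differed by -0.13 (adjusted p = 0.725) and Ikzf2 by 0.57 (0.394), and neither passed under any compound.

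**Figure D4:**
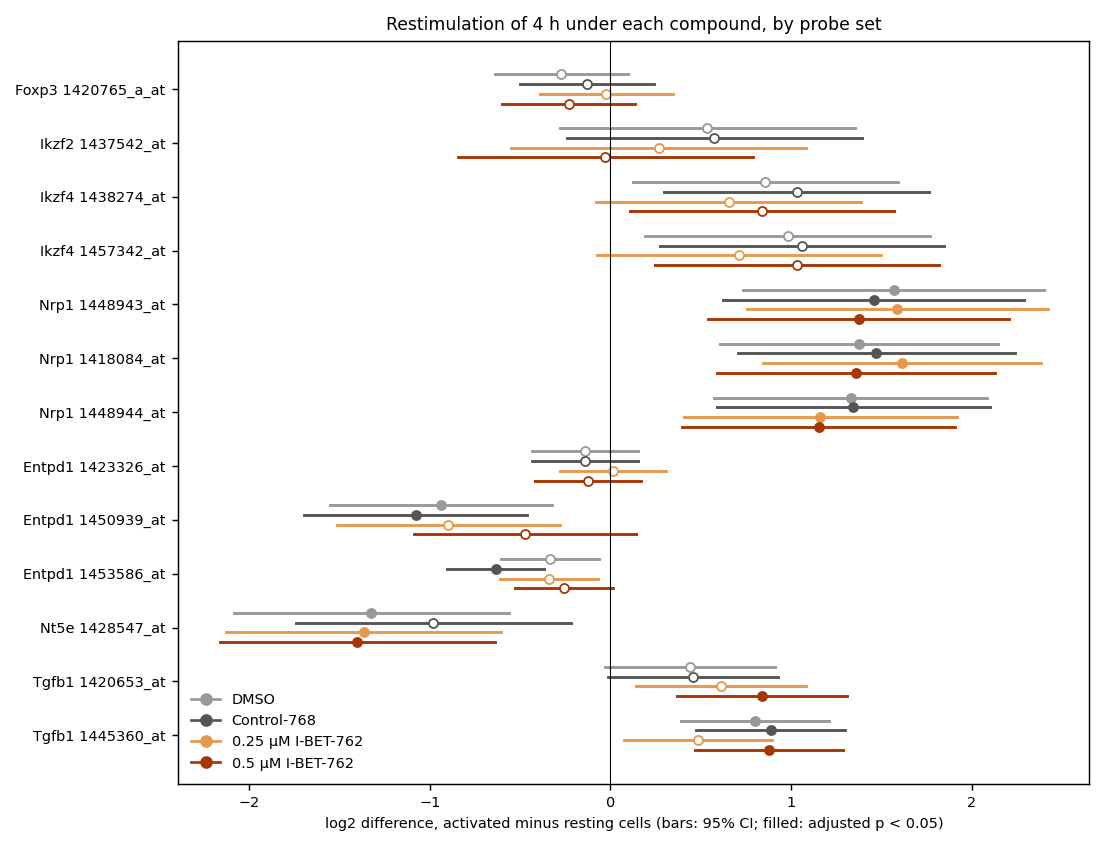
Log2 difference of activated minus resting cells under each compound, by probe set, with 95% intervals and filled points where the adjusted p was under 0.05. The 3 bright Nrp1 probe sets lie between 1.15 and 1.61 under every compound, and Nt5e 1428547_at lies between -1.40 and -0.98.

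Genes of the surrounding pathways were read by their brightest probe sets, with I-BET-762 at both concentrations against both controls, a comparison in which 0.962% of genes passed in activated and 1.52% in resting cells. Of the other Ikaros family genes, 1 of 3 rose in resting cells and 0 of 3 passed in activated cells. Aiolos (Ikzf3), a partner of Ikaros in lymphocytes, averaged 1213 with I-BET-762 and 475 with the controls in resting cells (log2 1.05 ± 0.23, adjusted p = 0.0297). Replicate 3 with 0.5 µM alone had 3288. The call was lost without replicate 1 of DMSO, Control-768 or 0.25 µM (0.0737, 0.0706 and 0.0522), replicate 2 of DMSO or Control-768 (0.0797 and 0.083) or replicate 3 with 0.25 µM (0.0922). In activated cells Ikzf3 differed by 0.77 ± 0.23 (adjusted p = 0.218, 0.0241 with the block), where Ikzf4 differed by -0.75.

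Of 25 genes for partners or upstream regulators of FOXP3, 0 passed in either state without the block (limma, median log2 difference 0.04 in activated and 0.12 in resting cells, against 0.00 and -0.01 over all genes). With the block, which called 3.31% of genes in activated and 4.49% in resting cells, 4 of 25 were higher and 0 lower in each state. Gata3, the Th2 master factor that regulatory T cells also use, averaged 259 with I-BET-762 and 112 with the controls in activated cells (log2 1.05 ± 0.45, adjusted p = 0.573, 3.78e-05 with the block). In resting cells Gata3 averaged 513 and 207 (1.10 ± 0.45, adjusted p = 0.465, 1.78e-05 with the block). Nfatc1, a calcium-dependent factor, differed by 0.59 ± 0.24 in resting cells (adjusted p = 0.469, 0.000594 with the block) and was also highest on that array (1810). The NF-κB subunit gene Rel and the forkhead gene Foxo1 were among the others in activated cells.

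Of 20 measured genes from a list of 25 other regulatory T cell surface and effector genes, 1 rose and 1 fell in activated cells, and 2 rose and 1 fell in resting cells (median log2 0.00 and -0.04). The inhibitory receptor gene Lag3 rose in both states, by 1.58 ± 0.16 (adjusted p = 8.72e-06) and 2.02 ± 0.16 (1.99e-07). Ebi3, a subunit of IL-27 and IL-35, fell in both, by 1.34 ± 0.20 on the log2 scale (0.000829) and 1.57 ± 0.20 (0.000134). Il10 rose in resting cells by 2.36 ± 0.48 (adjusted p = 0.016), a call lost without replicate 1 with 0.5 µM or 0.25 µM (0.0566 and 0.0597) or replicate 2 of Control-768 or DMSO (0.0568 and 0.0532). Izumo1r, the folate receptor 4 gene of regulatory T cells, averaged 903 with I-BET-762 and 656 with the controls in resting cells (log2 0.44 ± 0.13, adjusted p = 0.14, 0.0108 with the block).

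Around CD39 and CD73, 16 of 21 listed genes of adenosine and ATP handling were measured, and 1 rose and 1 fell in each state (median log2 -0.06 in activated and -0.04 in resting cells). Adenosine kinase (Adk), which removes intracellular adenosine, rose by 0.43 ± 0.08 in activated cells by a probe set of the kind that can match related transcripts (adjusted p = 0.0117) and 0.38 ± 0.08 in resting cells (0.0271). The resting Adk call was lost in 8 of the 12 omissions of an array, all but replicate 1 of DMSO and of 0.5 µM, replicate 2 with 0.5 µM and replicate 3 with 0.25 µM, at adjusted p of 0.0546 to 0.0734. Dpp4 (CD26) fell by 1.04 ± 0.16 in resting cells (adjusted p = 0.00119) and by 0.76 ± 0.16 in activated cells (0.0269). The activated Dpp4 call was lost without any replicate of DMSO, or without replicate 1 of Control-768 or replicate 1 or 3 with 0.25 µM, at adjusted p of 0.0574 to 0.0932.

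Of 22 measured genes of the TGF-β pathway (23 listed), 0 passed in activated cells and 1 fell in resting cells (median log2 -0.03 and -0.06). Smad3, which carries the TGF-β receptor signal to the nucleus, averaged 748 with I-BET-762 and 1102 with the controls (log2 -0.58 ± 0.11, adjusted p = 0.00669). With the block 2 were lower in activated and 3 in resting cells, among them the latent TGF-β binding protein gene Ltbp3 in both (-0.44 ± 0.23 and -0.60 ± 0.23, adjusted p with the block 0.0395 and 0.00352, without it 0.729 and 0.387). Of 15 genes for neuropilin partners and ligands, 0 passed in either state (limma, median log2 0.02 and 0.03), and 1 was lower in each state with the block. These were Kdr, which was dim, in activated cells (adjusted p = 0.104, 0.0112 with the block) and Vegfb in resting cells (0.624, 0.00635), a receptor and a ligand of the vascular endothelial growth factor family.

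On restimulation with Control-768, where 18.3% of genes passed, 0 of 3 other Ikaros family genes passed. Of the FOXP3 partners and upstream factors 6 of 25 rose and 2 fell (median log2 0.30, against -0.03 over all genes). Stat5a, which carries the interleukin 2 signal that sustains Foxp3, averaged 5300.2 in activated and 702 in resting cells (log2 2.88 ± 0.26, adjusted p = 1.09e-06). Foxp4 rose by 2.19 ± 0.34 (0.000271) and Foxo3, a factor of quiescent cells, fell by 0.89 ± 0.17 (0.00136). Among other regulatory T cell genes 6 of 20 rose and 1 fell, led by Il10 (4.18 ± 0.68, adjusted p = 0.000404) and the costimulatory receptor gene Tnfrsf9 (1.54 ± 0.33, 0.00327), with Rtkn2 lower (-1.14 ± 0.16, 0.000131).

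In the adenosine list 1 of 16 rose and 2 fell on restimulation with Control-768. The nucleoside transporter gene Slc29a2 rose by 1.34 ± 0.22 (adjusted p = 0.000477), while Entpd5 fell by 1.32 ± 0.27 (0.00234) and Adk fell by 0.48 ± 0.12 (0.0079). In the TGF-β list 3 of 22 rose and 1 fell. The repressors of SMAD signalling Ski (1.40 ± 0.11, 5.93e-07) and Skil (1.53 ± 0.17, 9e-06) rose, as did Furin (1.89 ± 0.30, 0.000276), whose protease matures the TGF-β1 precursor. Among neuropilin partners the semaphorin co-receptor gene Plxna1 rose (0.67 ± 0.17, adjusted p = 0.00943, 0.0595 without resting replicate 3). The ligand gene Vegfa fell (-0.79 ± 0.21, 0.0127), a call lost without activated replicate 1 or 3 (0.0523 and 0.0589) or resting replicate 2 (0.0675).

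Over the 24 arrays, the genes whose log2 values most resembled each bright member were named by Pearson's r among 9366 genes, as a description, since the arrays share states, compounds and replicate numbers. Ikzf4 was most like Ninj1 (r = 0.955, 0.945 within activated and 0.908 within resting arrays), Gabpb2 (0.935) and Tent5a (0.928). Nrp1 was most like Plek (0.941, 0.757 within activated and 0.948 within resting arrays), Rilpl2 (0.934) and Slc41a1 (0.932). Ikzf2 was most like Mideas (0.886, but 0.452 within activated arrays), Snapc1 (0.867) and Togaram1 (0.854). Tgfb1 was most like Plekhj1 (0.923), Hdgf (0.908) and Sf3b3 (0.908). For Entpd1 the highest values were lower, at 0.71 for Dusp1, 0.679 for Ubap1 and 0.675 for Arrb2.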

How the data were processed

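RNA of 24 cultures was hybridized to Affymetrix mouse arrays. The deposited values were intensities on a linear scale for 45101 probe sets, and the authors' summarization and normalization steps are not given in the sources used here. The deposited table held 64 control probe sets, which were left out. Genes were named from the platform annotation. Values were analysed as log2(intensity + 16) in limma 3.58.1 (R 4.3.3), with 8 group means, 16 residual and 3.66 prior degrees of freedom, 15 comparisons, two-sided tests and Benjamini-Hochberg adjustment over all 45037 probe sets, and an adjusted p under 0.05 was called. The fit was tested on simulated data.

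Members and gene lists were chosen with earlier results of these data known. Of each list the text names up to 3 called genes, lowest adjusted p first, from the pooled I-BET-762 comparison of each state and from restimulation with Control-768, and for each member with a mean intensity of 64 or more the 3 genes with the highest r. Gata3, Nfatc1, Rel, Foxo1, Izumo1r, Ltbp3, Kdr and Vegfb, and the values of Ikzf3 in activated cells, were named after their values were seen. Arrays of the same number and state deviated together in all 36 pairs (r at least 0.291), which gives the pairing within a state; across states it was -0.0272 to 0.284 in 48 pairs, so no pairing was used there. Alternatives were other constants, quantile normalization, a filter on dim probe sets, 1 probe set per gene, replicate blocks, fewer arrays, array weights and each array left out. Labels call the replicates biological.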

Additional observations from a re-analysis of the deposited data

Results flagged for a closer look

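For Ikzf4 1438274_at, Control-768 minus DMSO was positive in each activated pair (0.19, 0.11 and 0.01 on the log2 scale) and negative in each resting pair (-0.04, -0.10 and -0.07), a difference of 0.174 between activated and resting cells. For Tgfb1 1445360_at, 0.5 µM minus 0.25 µM I-BET-762 was positive in each activated pair (0.25, 0.28 and 0.25) and negative in each resting pair (-0.25, -0.03 and -0.10), a difference of 0.39. Neither difference between the states was tested.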

How the results depend on the processing

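At 0.5 µM against Control-768 in activated cells, 0 member probe sets were called, against 2 with a replicate block in each state, 2 with the block over both states and 2 without the arrays numbered 3. In resting cells 0 were called, against 3, 3 and 2 under these settings, 2 with array weights and 0 to 1 with an array left out. The pooled comparison in activated cells gave 0, against 2, 2 and 1, and in resting cells 0, against 2, 2 and 2. The block in each state changed no other member call. For restimulation, 6 calls with 0.5 µM became 1 with only the groups compared (3 to 6 with an array left out). With 0.25 µM 4 became 2 with a constant of 64 and 8 with the block over both states (0 to 3), and with DMSO 6 became 10 with array weights (2 to 5). With Control-768 6 became 4 to 6 with an array left out.

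Added after the data were seen, the block without replicate 3 of resting cells with 0.5 µM called 5 at 0.5 µM and 1 at 0.25 µM in activated cells, 3 at 0.5 µM in resting cells, 3 and 2 in the pooled comparisons of activated and resting cells and 1 for the step between concentrations in resting cells. The block without the arrays numbered 3 called 6, 1, 4, 3 and 3 in these comparisons, and 1 for the step in activated cells. Ikzf2 in resting cells turned from 0.20 at 0.5 µM to -0.68 and -0.75 under these settings, from 0.14 to -0.38 (pooled, arrays numbered 3 left out) and from 0.13 to -0.75 (0.5 µM minus 0.25 µM, without that replicate).

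Over all alternatives the calls among all probe sets were 191 (36 to 1488) at 0.5 µM and 16 (2 to 141) at 0.25 µM in activated cells, 339 (25 to 1433) and 18 (0 to 195) in resting cells, 282 (181 to 1687) and 450 (299 to 1885) in the pooled comparisons, 5 (0 to 78) and 19 (0 to 203) for the step, 8018 (866 to 10290), 4723 (2260 to 7624), 6674 (3651 to 10049) and 7124 (3799 to 10994) for restimulation with 0.5 µM, 0.25 µM, Control-768 and DMSO, and 0 (0 to 20) for the difference between states. Quantile normalization moved the share of higher calls on restimulation with 0.25 µM to 47%, against 57.7%. Single values were followed for 11 probe sets, the leads and those with a mean intensity of at least 64, which leaves out 8 dim ones and with them the Entpd1 calls. Each value was counted once for every alternative setting. Values called in the main fit kept their call and direction in 221 such cases and lost the call in 53. Values not called kept their direction uncalled in 2520 cases, changed sign uncalled in 202, became called in 93 and reversed in 4. The causes were not tested. The 3 arrays per group limit precision: the median 95% interval reached 0.405 log2 to either side, and 0.287 in pooled comparisons. Foxp3, Nt5e and the dim Entpd1 probe sets lay near or under the array medians.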
